A study of Ovis aries with 6 samples.

Results

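The genes described here are markers of adipocytes, the fat cells, measured in whole skin of fine wool and coarse wool sheep. They are the genes listed under the symbols FABP4, LPL, CD36, PLIN1, PLIN4, CIDEC, ADIPOQ, LEP, PPARG and GPD1, 10 in all, and they were taken by symbol. Of these, 9 were listed among the 28394 genes of the skin transcriptomes, and CD36 was not analysed here because no gene carries that symbol. LEP was listed but too low to be tested, so that 8 of the 10 were compared between the breeds.

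Skin was taken from 3 ewes of the Super Merino breed (SM) and 3 ewes of the Small Tail Han breed (STH), all untreated, housed on the same farm on the same feed, and 9 months old by the sample records, whereas the methods of the study give a younger age. By their labels the SM group holds sheep 128, 30034 and 30126, while XW3, XW5 and XW8 form the STH group. The samples were excised pieces of shoulder-region skin, and how much subcutaneous fat each held is not given in the sources used here. Polyadenylated RNA of each ewe gave 1 library, with total counts between 28870583 and 44645091. Levels of a gene are given as CPM, counts per 1e6 counts of the library after scaling by the trimmed mean of M values (TMM), and levels of different genes are compared as RPKM, which divides the reads by exon length and library total. In bulk skin, fewer cells of a type and less RNA per cell cannot be told apart.

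An adipocyte stores triglyceride in a large lipid droplet. Lipoprotein lipase (LPL) frees fatty acids from circulating lipoproteins at the capillary wall, CD36 and the fatty acid binding protein FABP4 take them up and carry them through the cell, and GPD1 makes the glycerol 3-phosphate onto which they are esterified. PLIN1, PLIN4 and CIDEC sit on the surface of the droplet, where PLIN1 controls the access of lipases and CIDEC lets droplets fuse. PPARG is the transcription factor that drives adipocyte differentiation, and adiponectin (ADIPOQ) and leptin (LEP) are hormones that adipocytes secrete. In skin, adipocytes lie below the dermis and around the base of the follicles. ADIPOQ and LEP are made almost exclusively by adipocytes, whereas FABP4 is also found in capillary endothelium and macrophages, and PPARG and lipid droplet proteins are also found in the sebaceous gland.

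The label of the list was met in part. Markers of skin were abundant in every sheep, with 6 keratins of epidermis and follicle summing to between 16332 and 31124 CPM. The hormones that define adipocytes were low, and ADIPOQ ranked 12413 of the 15320 tested genes by mean RPKM. FABP4, in contrast, ranked 298 and PLIN4 1662. The 2 most abundant genes of the list were therefore not accompanied by comparable levels of ADIPOQ, PLIN1 or LEP, and FABP4 and PLIN4 differed between the breeds in opposite directions.

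FABP4 lies on chromosome 9 of the sheep genome Oar_v4.0, from 57396171 to 57400688 on the minus strand. Its level was 27.8 CPM in SM ewe 128, 62.6 in 30034 and 29.7 in 30126, and 134, 169 and 128 CPM in STH ewes XW3, XW5 and XW8. Every STH ewes lay above every SM ewes, and SM ewe 30034 was the highest of its breed. The means were 40.0 ± 19.6 CPM (SD, n = 3) in SM and 144 ± 21.9 CPM (SD, n = 3) in STH ewes, 3.58-fold higher in STH. The log2 fold change of SM over STH was -1.84 with a standard error of 0.31 (unadjusted p = 0.000257, adjusted p = 0.159 from the quasi-likelihood test of edgeR). This did not pass the adjusted threshold, which 0 of the 15320 tested genes (0.00%) passed in that test, while 2762 genes had an unadjusted p under 0.05. With the likelihood ratio test of edgeR, which called 352 genes (2.30%), FABP4 passed with an adjusted p of 1.67e-05, whereas DESeq2, which called 439 genes (2.87%), gave it 2.76e-06.

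LPL, on chromosome 2 from 45695792 to 45719765, was far less abundant than FABP4. It had 2.08, 2.32 and 1.12 CPM in SM ewes 128, 30034 and 30126, from 63, 105 and 44 counts, and 2.76, 4.71 and 3.31 CPM in STH ewes XW3, XW5 and XW8. The STH ewes again lay above the SM ewes, with XW5 the highest of the 6. The means were 1.84 ± 0.637 CPM (SD, n = 3) in SM and 3.59 ± 1.01 CPM (SD, n = 3) in STH ewes, a log2 fold change of -0.97 with a standard error of 0.38 (unadjusted p = 0.0317, adjusted p = 0.260 from the quasi-likelihood test). By the likelihood ratio test and DESeq2 the adjusted p values were 0.180 and 0.153. Without STH ewe XW5 the unadjusted p was 0.138, without SM ewe 30126 it was 0.0807 and without STH ewe XW8 0.0519.

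**Figure D1:**
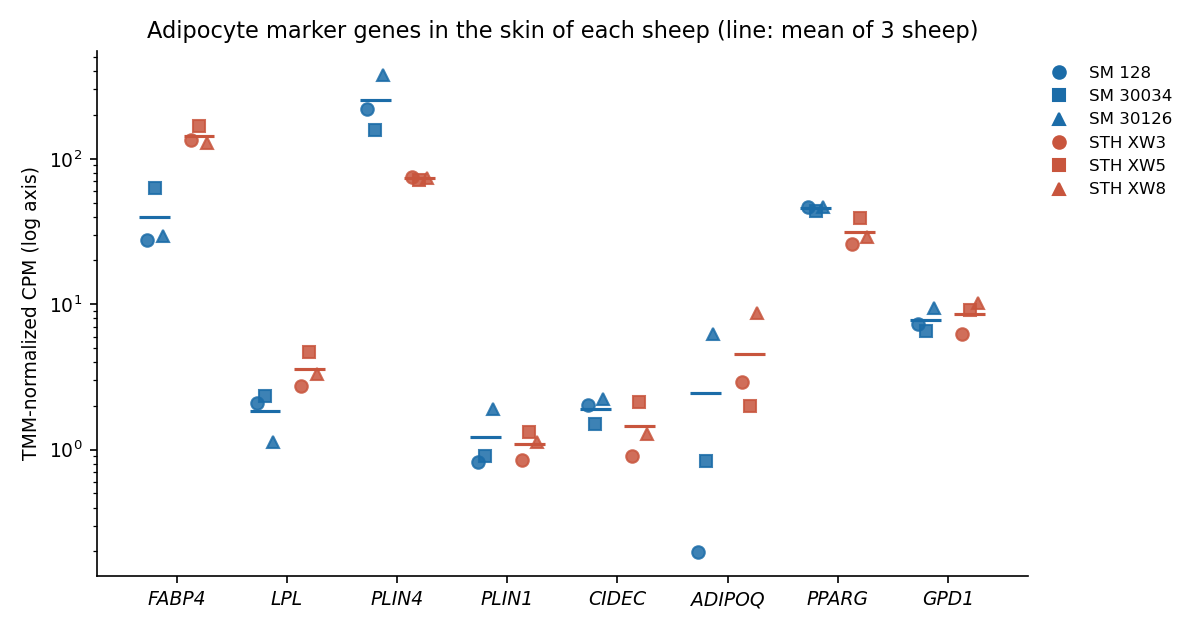
TMM-normalized CPM, on a log axis, of the 8 tested adipocyte marker genes in each of the 6 sheep, with a line at the mean of the 3 sheep of a breed. FABP4 and LPL are higher in all STH ewes, PLIN4 and PPARG are higher in all SM ewes, and the breeds overlap in PLIN1, CIDEC, ADIPOQ and GPD1.

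Among the lipid droplet proteins, PLIN4 stood apart from PLIN1 and CIDEC. PLIN4 lies on chromosome 5 from 17131002 to 17139777. It had 221, 158 and 380 CPM in SM ewes 128, 30034 and 30126, and 75.3, 72.1 and 74.3 CPM in STH ewes XW3, XW5 and XW8. The STH ewes were almost equal, with a highest value 1.05 times the lowest, whereas the SM ewes spread over 2.41-fold with 30126 the highest. The means were 253 ± 114 CPM (SD, n = 3) in SM and 73.9 ± 1.66 CPM (SD, n = 3) in STH ewes, 3.42-fold higher in SM. The log2 fold change was 1.77 with a standard error of 0.29 (unadjusted p = 0.000204, adjusted p = 0.159 from the quasi-likelihood test). By the likelihood ratio test and DESeq2 the adjusted p values were 8.71e-06 and 1.01e-06, and both called the gene.

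PLIN1, the droplet coat protein of mature adipocytes, lies on chromosome 18 from 20174003 to 20188015. It had 0.826, 0.908 and 1.91 CPM in SM ewes 128, 30034 and 30126, and 0.843, 1.33 and 1.13 CPM in STH ewes XW3, XW5 and XW8, from between 25 and 75 counts. The breeds overlapped, with a log2 fold change of 0.14 and a 95% interval from -0.92 to 1.20. CIDEC, on chromosome 19 from 16796880 to 16805948, had 2.02, 1.51 and 2.22 CPM in the SM ewes and 0.908, 2.13 and 1.29 CPM in the STH ewes in the same order. The breeds overlapped here too, with a log2 fold change of 0.40 and a 95% interval from -0.55 to 1.34. These intervals, from the standard error of the quasi-likelihood test, include a difference of 2-fold, so that PLIN1 and CIDEC were not shown to be equal in the breeds.

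The ratio of PLIN4 to PLIN1 within a library does not depend on how the libraries are scaled. PLIN4 had 268, 174 and 199 counts for each count of PLIN1 in SM ewes 128, 30034 and 30126, and 89.3, 54.3 and 66.0 in STH ewes XW3, XW5 and XW8. The difference in the mean log2 ratio, SM minus STH, was 1.62 (p = 0.1 in an exact permutation test, two-sided, where 3 ewes against 3 allow nothing smaller, and adjusted p = 0.1 over 2 ratios). FABP4 had 33.6, 69.0 and 15.5 counts for each count of PLIN1 in the SM ewes, and 159, 127 and 114 in the STH ewes. The difference in its mean log2 ratio was -1.999 (p = 0.1 in the same exact permutation test, adjusted p = 0.1). In both ratios all sheep of a breed lay on the same side of all sheep of the other, PLIN4 to PLIN1 with SM above STH and FABP4 to PLIN1 with STH above SM. Between PLIN4 and FABP4 themselves the count ratio was 7.96, 2.52 and 12.8 in SM ewes 128, 30034 and 30126, and 0.562, 0.428 and 0.580 in STH ewes XW3, XW5 and XW8. PLIN1 as the reference and the ratio of PLIN4 to FABP4 were chosen after the data had been seen.

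**Figure D2:**
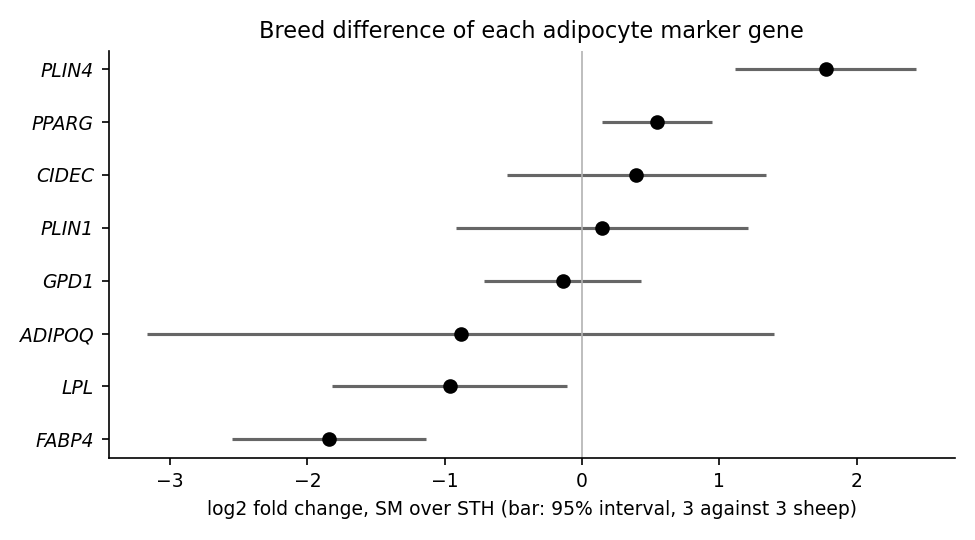
Log2 fold change of SM over STH for the 8 tested genes, with the 95% interval of the quasi-likelihood test over 3 against 3 sheep. The intervals of FABP4 and LPL lie below 0, those of PLIN4 and PPARG above 0, and that of ADIPOQ, from -3.17 to 1.40, is the widest.

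The adipokines were low and uneven within each breed. ADIPOQ, on chromosome 1 from 198460186 to 198473290, had 0.198, 0.841 and 6.27 CPM in SM ewes 128, 30034 and 30126, and 2.92, 1.99 and 8.70 CPM in STH ewes XW3, XW5 and XW8. Its highest value was 43.9 times its lowest, the largest such range of the 8 tested genes, and the SM ewes alone spread over 31.6-fold. In SM ewe 128 the level rested on 6 counts, with an exact Poisson 95% interval from 2.20 to 13.1 counts, and in the other sheep on between 38 and 263. Such intervals cover counting error only. The means were 2.44 ± 3.33 CPM (SD, n = 3) in SM and 4.54 ± 3.64 CPM (SD, n = 3) in STH ewes. The log2 fold change was -0.88 with a standard error of 1.003 (unadjusted p = 0.402, adjusted p = 0.616 from the quasi-likelihood test).

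The difference in ADIPOQ rested on which sheep were compared. Without STH ewe XW8 its log2 fold change was -0.0023, and without SM ewe 30126 it was -3.05 (unadjusted p = 0.00719, adjusted p = 0.335 from the quasi-likelihood test). LEP, on chromosome 4 from 92489625 to 92505899, had 8 counts in SM ewe 30126, 12 in STH ewe XW8 and 2 in STH ewe XW5, and 0 counts in the other 3 sheep. By the one-sided 95% limit a count of 0 allows up to 3 counts, which is 0.0992 CPM in SM ewe 128, 0.0664 in 30034 and 0.0973 in STH ewe XW3. The 2 sheep with the most LEP, 30126 and XW8, were also those with the most ADIPOQ, and they came from different breeds. No fold change is given for LEP.

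FABP4 did not follow ADIPOQ across the sheep. In SM ewe 128, with 6 counts of ADIPOQ and 0 of LEP, FABP4 still had 840 counts. SM ewe 30126 had 31.6 times the ADIPOQ level of SM ewe 128 and nearly the same FABP4 level, 29.7 against 27.8 CPM. STH ewe XW8 had the most ADIPOQ of the 6 and the least FABP4 of its breed. Counts of FABP4 for each count of ADIPOQ were 140, 74.4 and 4.73 in SM ewes 128, 30034 and 30126, and 45.9, 84.7 and 14.7 in STH ewes XW3, XW5 and XW8, so that the breeds overlapped. Counts of PLIN4 for each count of ADIPOQ were 1115, 188 and 60.6 in the SM ewes and 25.8, 36.2 and 8.54 in the STH ewes, with all SM ewes above all STH ewes. No test of the ratios to ADIPOQ was made, because ADIPOQ had fewer than 10 counts in SM ewe 128.

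**Figure D3:**
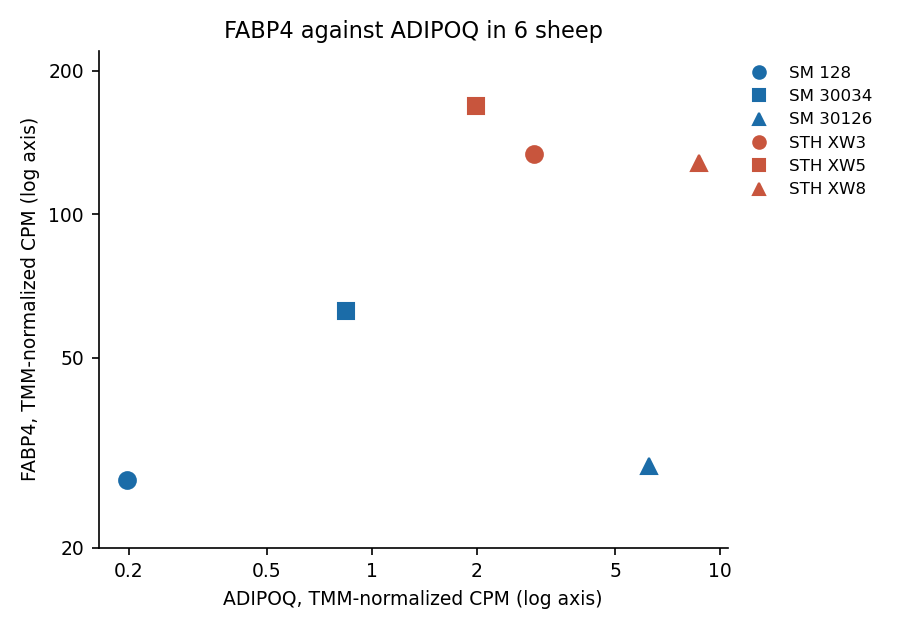
FABP4 against ADIPOQ, both as TMM-normalized CPM on log axes, with 1 point for each of the 6 sheep. The STH ewes lie above the SM ewes in FABP4, between 128 and 169 against 27.8 to 62.6 CPM, while along the ADIPOQ axis the sheep of both breeds are mixed.

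PPARG, on chromosome 19 from 56520098 to 56689727, had 46.6, 43.6 and 46.6 CPM in SM ewes 128, 30034 and 30126, and 25.9, 38.9 and 28.8 CPM in STH ewes XW3, XW5 and XW8. All SM ewes lay above all STH ewes, and the SM ewes were within 1.07-fold of each other. The means were 45.6 ± 1.77 CPM (SD, n = 3) in SM and 31.2 ± 6.82 CPM (SD, n = 3) in STH ewes, a log2 fold change of 0.55 with a standard error of 0.18 (unadjusted p = 0.0132, adjusted p = 0.247 from the quasi-likelihood test). The size is under the fold threshold of 1.5, and neither the likelihood ratio test nor DESeq2 called PPARG. Without STH ewe XW3 the unadjusted p was 0.0572, and without STH ewe XW8 it was 0.0539.

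GPD1, on chromosome 3 from 135854041 to 135859910, had 7.34, 6.58 and 9.43 CPM in SM ewes 128, 30034 and 30126, and 6.29, 9.17 and 10.3 CPM in STH ewes XW3, XW5 and XW8. The breeds overlapped, with a log2 fold change of -0.14, a standard error of 0.25 and a 95% interval from -0.71 to 0.43 (unadjusted p = 0.589, adjusted p = 0.759 from the quasi-likelihood test). GPD1 overlaps SMARCD1 by 1988 bases on the same strand. SMARCD1 had 10441 counts in all against 1780 for GPD1, and its log2 fold change was -0.06, and how reads in the shared part were assigned is not given in the sources used here.

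Of the 8 genes tested, 4 had an unadjusted p under 0.05, 2 higher in SM (PLIN4 and PPARG) and 2 higher in STH ewes (FABP4 and LPL), where 18.0% of all tested genes did, 7.21% higher in SM and 10.8% higher in STH ewes. The breeds did not overlap in the same 4 genes, against 25.6% of all tested genes. Of these, FABP4 and PLIN4 had already been reported by the study as differing in the same directions in these same libraries. The median log2 fold change over the 8 genes was 0.0020, beside 0.02 over all tested genes, with 4 values above 0 and 4 below. As each sheep was left out, between 2 and 4 of the 8 genes had an unadjusted p under 0.05, the fewest without STH ewe XW8, and without SM ewe 30126 ADIPOQ was among them while LPL was not. The share of all tested genes at that unadjusted p in these fits is not given here. Without SM ewe 128, FABP4 and PLIN4 passed both thresholds, with adjusted p values of 0.0194 and 0.0163, but then 7.73% of all genes did. FABP4 also passed without SM ewe 30034, with an adjusted p of 0.0222, where 3 genes in all did.

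**Figure D4:**
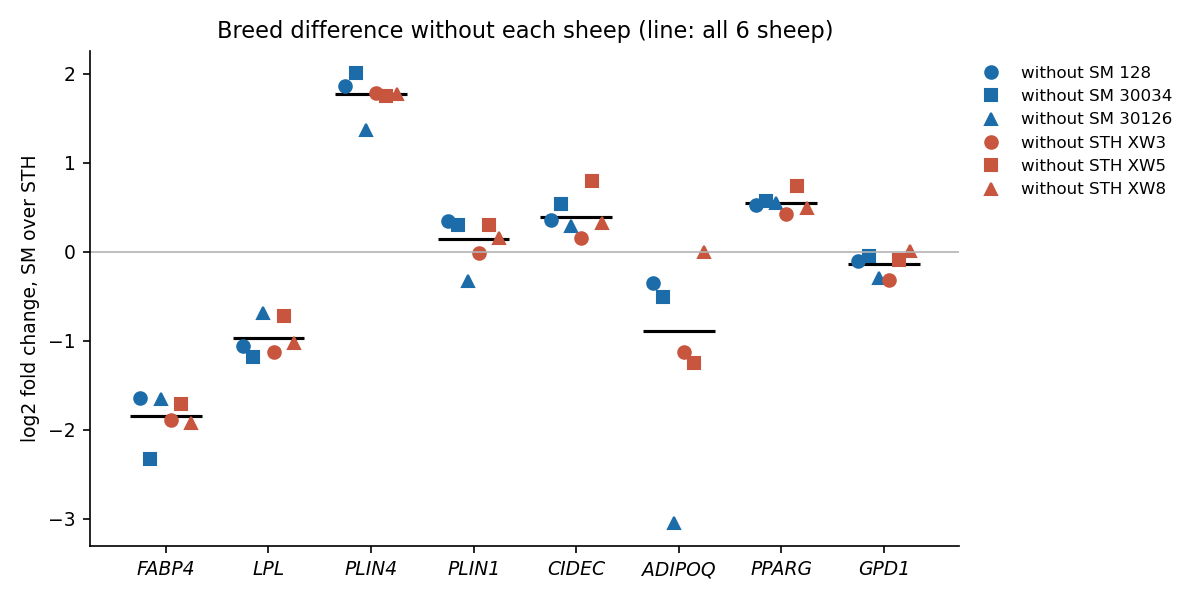
Log2 fold change of SM over STH for each gene as each of the 6 sheep was left out, with a line at the value from all 6 sheep. FABP4 stays between -2.33 and -1.64 and PLIN4 between 1.37 and 2.01, while ADIPOQ moves from -3.05 to -0.0023 and PLIN1 and GPD1 change sign.

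Per kilobase of exon, the order of the genes was FABP4, PLIN4, GPD1, PPARG, LPL, CIDEC, ADIPOQ, PLIN1 and LEP. Mean RPKM values over the 6 sheep were 158, 29.0, 2.92, 1.58, 1.15, 0.719, 0.708, 0.232 and 0.0248 in that order. PLIN4 lay above GPD1 in 6 of 6 sheep, GPD1 above PPARG in 6 of 6 and PLIN1 above LEP in 6 of 6. FABP4 lay above PLIN4 in 5 of 6 sheep, the exception being SM ewe 30126, with 68.5 RPKM of PLIN4 against 52.9 of FABP4. PPARG and LPL, and likewise CIDEC and ADIPOQ, each kept their order in 3 of 6 sheep, and did not differ beyond the spread of the sheep. The exon length behind the RPKM of PPARG was 42.5 times that of FABP4, and between 4.06 and 9.89 times for the other genes, so that the RPKM of PPARG is low for its count.

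FABP4 lies near FABP5 and FABP12, genes of its family, on chromosome 9. FABP5, its closely related family member of epidermal cells, lies from 57218767 to 57223826 and had 296 ± 37.7 CPM (SD, n = 3) in SM and 284 ± 27.2 CPM (SD, n = 3) in STH ewes, a log2 fold change of 0.06 with a standard error of 0.15 (unadjusted p = 0.703, adjusted p = 0.834 from the quasi-likelihood test). FABP12, on the other side of FABP4, had 0 counts in all 6 sheep. The gene between FABP5 and FABP4 nearest to FABP4, LOC101113339, from 57381426 to 57384616, was picked out after its values were seen. It had 345, 317 and 266 CPM in SM ewes 128, 30034 and 30126, and 579, 655 and 785 CPM in STH ewes XW3, XW5 and XW8. Its log2 fold change was -1.12 with a standard error of 0.17 (unadjusted p = 0.000142, adjusted p = 0.159 from the quasi-likelihood test), in the direction of FABP4, with no overlap between the breeds. LOC101113077, also between FABP5 and FABP4, had a log2 fold change of -0.46 (unadjusted p = 0.422 from the quasi-likelihood test), and the breeds overlapped. Whether either gene is like FABP4 in sequence was not tested. How reads shared by genes of similar sequence were counted is not given in the sources used here. LOC105613108, which spans FABP4 on the opposite strand, is listed at 0 counts in every sheep although its deposited RPKM is above 0, as holds for 4291 of the 10571 genes with 0 counts. Its RPKM was 0.327, 0.388 and 0.182 in SM ewes 128, 30034 and 30126, and 0.750, 0.940 and 1.05 in STH ewes XW3, XW5 and XW8, with no overlap between the breeds, and whether reads of FABP4 were assigned to it was not tested.

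The genes whose levels over the 6 sheep were most like those of a given gene were found by the root mean square difference of centred log2 CPM. For FABP4 they were IL5RA, LOC101106588, TMEM196, GAPT and GPR141, at 0.17, 0.22, 0.28, 0.28 and 0.30 log2 units. They are the closest of 15320 tested genes over only 6 sheep, and all had log2 fold changes between -2.45 and -1.45. Some were low, such as TMEM196 at 0.0764 CPM in SM ewe 30126. Which cells held them was not tested. IL5RA, a receptor chain for interleukin 5 known from eosinophils, had 0.529, 0.996 and 0.459 CPM in SM ewes 128, 30034 and 30126, and 2.08, 2.68 and 1.79 CPM in STH ewes XW3, XW5 and XW8. LPL, at 0.60 and in place 119, was the adipocyte marker most like FABP4, and PLIN4, at 1.94, the least like it. For PLIN4 the nearest genes were GPHA2, LOC101110417, PGLYRP2, TRIM71 and AADACL3, at 0.26 to 0.31 log2 units, and the nearest adipocyte marker was PPARG, at 0.68 and in place 905. For ADIPOQ the nearest were CHRM1, PCK1, LOC105602015, NELL1 and LOC101122314, at 0.60 to 0.82 log2 units. PCK1, an enzyme of the pathway by which adipocytes make glycerol 3-phosphate from smaller precursors, had 0 CPM in SM ewe 128, 0.310 in 30034 and 0.662 in 30126. In STH ewes XW3, XW5 and XW8 it had 0.519, 0.758 and 0.993 CPM. Of the other adipocyte markers PLIN1 came nearest to ADIPOQ, at 1.51 and in place 432. A gene with the same level in all 6 sheep would lie at 1.72 from ADIPOQ, 1.04 from FABP4 and 0.92 from PLIN4. These are the SDs of the 3 genes over the sheep, so PLIN1 was little like ADIPOQ.

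Other genes of adipocytes were taken from 9 lists by function, 70 genes in all, of which 66 were found and 62 tested. None of the 62 passed the adjusted threshold, 13 had an unadjusted p under 0.05 with a higher level in SM ewes, and 4 with a higher level in STH ewes, together 27.4% against 18.0% of all tested genes (7.21% higher in SM and 10.8% in STH). Their median log2 fold change was 0.27, beside 0.02 over all tested genes. PLIN2, CIDEA and FITM2 had already been reported by the study as higher in SM from these libraries, and SERPINA12 as higher in STH. The share is therefore not independent of that report.

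Of the transcription factors of adipogenesis, 7 of 9 were tested, with a median log2 fold change of 0.34. CEBPA and CEBPB, which act beside PPARG, and SREBF1, a regulator of lipid synthesis, had an unadjusted p under 0.05 and log2 fold changes of 0.57, 0.59 and 0.55. CEBPA had 42.9, 40.8 and 53.0 CPM in SM ewes 128, 30034 and 30126, and 26.4, 33.6 and 31.8 CPM in STH ewes XW3, XW5 and XW8, so that the breeds did not overlap, as in PPARG. ZNF423, a factor of preadipocytes, had 0.34 (unadjusted p = 0.0573 from the quasi-likelihood test).

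Among the other lipid droplet proteins, PLIN2 and CIDEA differed in the direction of PLIN4. PLIN2, the droplet coat of many cell types, had 277, 347 and 608 CPM in SM ewes 128, 30034 and 30126, and 173, 251 and 206 CPM in STH ewes XW3, XW5 and XW8. CIDEA, a droplet protein of brown adipocytes and sebaceous cells, had 36.3, 30.8 and 54.2 CPM in the SM ewes and 11.2, 20.3 and 24.0 CPM in the STH ewes. In both genes all SM ewes lay above all STH ewes and 30126 was the highest, with log2 fold changes of 0.97 (unadjusted p = 0.00883) and 1.13 (unadjusted p = 0.00545) from the quasi-likelihood test. PLIN3 and CIDEB had log2 fold changes of 0.27 and -0.23 with an unadjusted p above 0.05, and PLIN5, the droplet protein of oxidative tissues, was too low to be tested.

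In the synthesis and storage of triglyceride, 8 of 9 genes were tested with a median log2 fold change of 0.18. FITM2, which helps droplets to form, was the single gene at an unadjusted p under 0.05, with 0.71, and BSCL2, DGAT1 and LPIN1 had 0.42, -0.55 and 0.34. In lipolysis 8 of 9 were tested, with a median of 0.43. The monoglyceride lipase MGLL and ABHD5, the activator of triglyceride lipase, had 0.68 and 0.65 at an unadjusted p under 0.05. G0S2, which inhibits that lipase, and PNPLA2, the lipase itself, had 0.56 and 0.31 with an unadjusted p above 0.05. AQP7, the glycerol channel of adipocytes, did not exceed 0.199 CPM in any sheep and was not tested.

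Of the partners of LPL and the genes of fatty acid uptake, all 10 were tested, with a median of 0.22. The fatty acid transporters SLC27A1 and SLC27A4 had log2 fold changes of 0.57 and 0.51, and caveolin (CAV1) had -0.48, each at an unadjusted p under 0.05. GPIHBP1, which anchors LPL at the capillary wall, was at 0.132 to 0.560 CPM with a log2 fold change of 0.28. Among secreted proteins 7 of 8 were tested, with a median of 0.35. SERPINA12, an adipokine that epidermal cells also make, had 6.61, 6.20 and 12.5 CPM in SM ewes 128, 30034 and 30126, and 11.2, 25.3 and 28.9 CPM in STH ewes XW3, XW5 and XW8, with a log2 fold change of -1.37 at an unadjusted p of 0.00700 (quasi-likelihood test). The retinol carrier RBP4 had 0.76 at an unadjusted p of 0.0154 (quasi-likelihood test), and AGT and RARRES2 had 0.90 and 0.35 with an unadjusted p above 0.05.

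The 3 tested genes of thermogenic fat had log2 fold changes below 0. PPARGC1A, the coactivator of mitochondrial biogenesis, had -1.21 at an unadjusted p of 0.0161 (quasi-likelihood test), and PRDM16 and DIO2 had -0.67 and -0.33 with an unadjusted p above 0.05. UCP1, which defines brown fat, was at 0 or below 0.1 CPM in every sheep. In the remaining adipocyte genes, 9 of 9 tested with a median of 0.02, THRSP, a regulator of fatty acid synthesis, had 0.77 and ADIRF -0.35 at an unadjusted p under 0.05. TRARG1, a protein of the glucose transporter vesicles of fat, had 0 CPM in SM ewe 128 and between 0.130 and 0.560 CPM in the others. By the limit given above for a count of 0, up to 0.0992 CPM is allowed in that ewe. Of the 6 progenitor genes ICAM1 had 0.42 at an unadjusted p under 0.05, and CD34, DPP4 and PPARD had 0.37, -0.45 and 0.30 with an unadjusted p above 0.05.

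**Figure D5:**
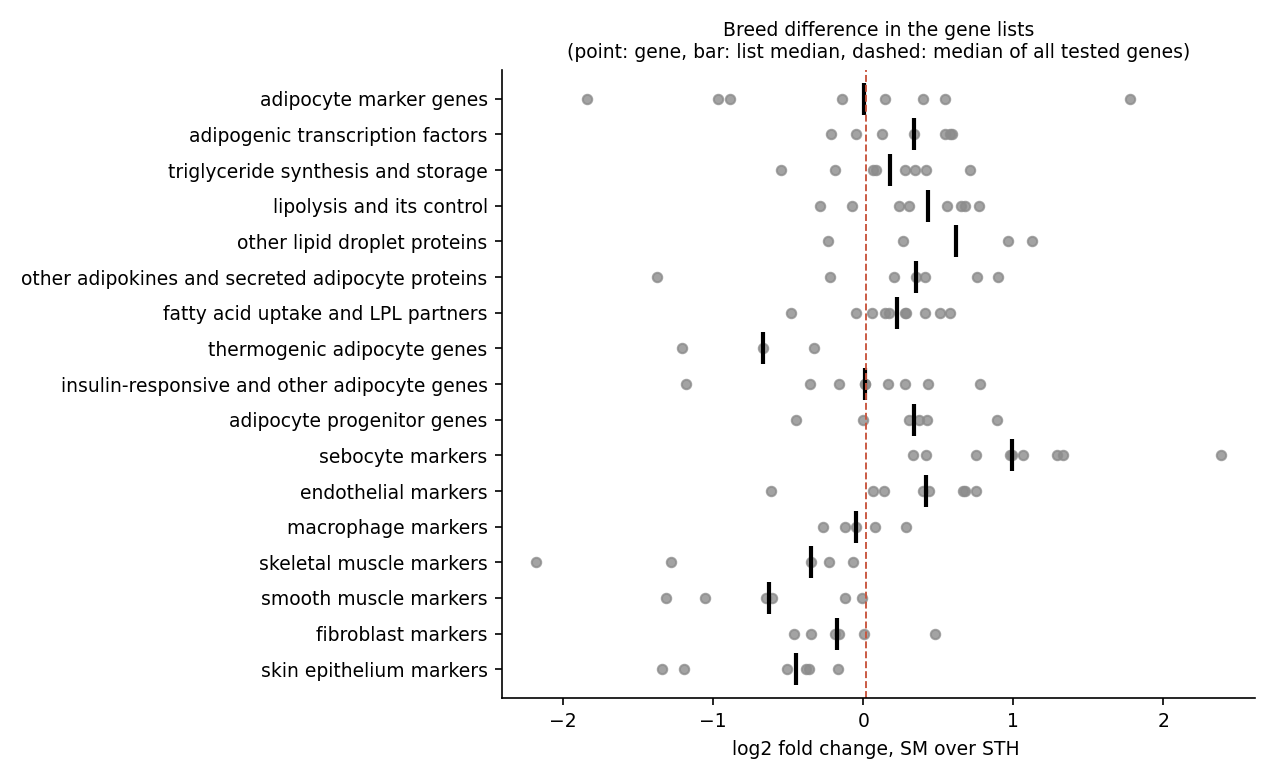
Log2 fold change of SM over STH for each tested gene of the lists, with a bar at the median of a list and a dashed line at the median of all tested genes, 0.02. The adipocyte marker genes run from -1.84 to 1.77 with a median near 0, and the sebocyte markers, with a median of 0.99, all lie above 0.

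Markers of other cells of the skin that are known to hold some of these proteins moved with the breed as follows. The 9 sebocyte markers, the cells of the sebaceous gland, summed to between 2501 and 3142 CPM in SM and between 1180 and 1926 CPM in STH ewes. All 9 had log2 fold changes above 0, with a median of 0.99, and 6 had an unadjusted p under 0.05, where 7.21% of all tested genes did with a higher level in SM. The study had already reported AWAT1, DGAT2L6, ELOVL3, KRT79 and FA2H as higher in SM from these same libraries. The count and the median are therefore not independent of that report. The wax and glyceride acyltransferase DGAT2L6 had 2.38, and KRT79, FA2H and ELOVL3 had 0.98, 0.99 and 1.06. KRT79, at 358 to 977 CPM, is listed by the paper with genes related to hair follicle stem cells. The summed level therefore need not be that of the sebaceous gland alone. PLIN4, PLIN2, CIDEA and PPARG were higher in the same sheep, and the part of the sebaceous gland in these differences was not tested.

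FABP4 and LPL were higher in STH ewes. Endothelial markers, 8 of 9 found, summed to between 575 and 725 CPM in SM and between 373 and 604 CPM in STH ewes, with a median log2 fold change of 0.42. VWF, CDH5 and TIE1 had 0.66, 0.68 and 0.75, while EMCN, a marker of capillaries and veins, had -0.61, each at an unadjusted p under 0.05. Macrophage markers, 6 of 7 found, summed to between 185 and 224 CPM in SM and between 177 and 199 CPM in STH ewes, with a median of -0.05. Of the 5 tested, 0 had an unadjusted p under 0.05, where 18.0% of all tested genes did. The fibroblast markers summed to between 14491 and 20815 CPM in SM and between 16896 and 20813 CPM in STH ewes.

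Muscle also takes up fatty acids through LPL. The 6 smooth muscle markers summed to between 1132 and 1348 CPM in SM and between 1756 and 2224 CPM in STH ewes, and 4 of them, DES, MYH11, ACTA2 and CNN1, had an unadjusted p under 0.05 with log2 fold changes of -1.32, -1.05, -0.65 and -0.61, where 10.8% of all tested genes did with a higher level in STH. The skeletal muscle markers, 8 of 9 found, summed to between 28.6 and 45.4 CPM in SM and between 39.6 and 46.4 CPM in STH ewes, with MYL1 at 0 counts in all 6 sheep. Of them ACTA1 had a log2 fold change of -2.18 at an unadjusted p of 0.00507 (quasi-likelihood test). The 6 skin epithelium markers summed to between 16332 and 20455 CPM in SM and between 19763 and 31124 CPM in STH ewes. All 6 had log2 fold changes below 0, with a median of -0.45, and 3 had an unadjusted p under 0.05, against the 10.8% of all tested genes given above, with KRT10 at -1.34, KRT1 at -1.20 and KRT14 at -0.51. The study had already reported DES, MYH11, ACTA1, KRT1 and KRT10 as higher in STH from these same libraries. The counts of these lists are therefore not independent of that report. The part of muscle, endothelium, macrophages or epidermis in the FABP4 and LPL differences was not tested.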

How the data were processed

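Whole skin gave 1 RNA library for each of 6 ewes, 3 SM and 3 STH. The authors checked the reads with FastQC and mapped them to Oar_v4.0 with CLC Genomics Workbench 9.0.1, and the total counts they deposited are whole numbers without normalization. The authors also deposited RPKM, which tracks the counts through a fixed exon length for each gene and served to compare genes, but 4291 genes listed at 0 counts in every ewe have an RPKM above 0, and these could not be tested. The deposited TPM values and a score that the authors call CPM were not used.

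A gene was tested if 3 or more sheep had 10 counts or more, which left 15320 genes. Counts were scaled by TMM and compared by the quasi-likelihood test of edgeR 4.0.16 (R 4.3.3) with breed as the only term, over all tested genes, with Benjamini-Hochberg adjustment. A gene passed with an adjusted p under 0.05 and a log2 fold change beyond 0.585. Standard errors are the log2 fold change over the square root of F. Ratios were compared by an exact permutation test over sheep. Likeness used log2 CPM with a prior count of 2. DESeq2 1.42.0, limma 3.58.1 on log2(RPKM + 0.1) and other settings were alternatives, and the fits were tested on simulated counts. The samples were grouped by the breed in the labels.

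The members, lists and tests were chosen with earlier results of these data known. All adipocyte markers are named. Of each list, up to 4 genes with the smallest unadjusted p are named, besides the 5 genes most like FABP4, ADIPOQ and PLIN4 and the FABP genes within 200 kb of FABP4. Further genes named (GPIHBP1, PLIN5, AQP7, UCP1, TRARG1, MYL1, LOC101113339, LOC101113077 and overlapping genes) were added after their values were seen. List genes were matched by symbol, older symbol or the RefSeq gene table (ARS-UI_Ramb_v3.0), which matched 21630 of 28394 identifiers and gave the chromosome names. Coordinates are those of the files. The labels do not pair sheep of different breeds.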

Additional observations from a re-analysis of the deposited data

How the results depend on the processing

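No paired analysis was possible because the labels carry no replicate number and tie no ewe of a breed to a ewe of the other. Over all tested genes, the count past both thresholds was 0 with all 6 sheep and the quasi-likelihood test (2762 genes at an unadjusted p under 0.05), 352 with the likelihood ratio test, 439 with DESeq2, 2 without a count filter and 11 with limma on RPKM, and between 0 and 1175 on leaving out each ewe in turn, the highest without SM ewe 128. Of the 8 adipocyte markers, 2 passed with the likelihood ratio test and 2 with DESeq2, FABP4 and PLIN4 in both, and between 0 and 2 on leaving out each ewe in turn. The number at an unadjusted p under 0.05 lay between 2 and 4, and the number without overlap between 4 and 5, on leaving out each ewe in turn. For neither number is the share of all tested genes in these settings given here. With fewer ewes in a breed an overlap is less likely to be seen. PLIN1 changed sign without SM ewe 30126, to -0.33, and without STH ewe XW3, to -0.01, and GPD1 without STH ewe XW8, to 0.0066. On leaving out each ewe PLIN1 lay between -0.33 and 0.35, and GPD1 between -0.32 and 0.0066. The cause of these changes was not tested. The difference in the log2 ratio to PLIN1 lay between -2.53 and -1.45 for FABP4 and between 1.44 and 1.81 for PLIN4 on leaving out each ewe in turn, and kept its sign with 1 count added and with RPKM. The planned ratios to ADIPOQ were not run, since ADIPOQ had 6 counts in SM ewe 128. Low counts limit PLIN1, CIDEC and LPL most. ADIPOQ is limited by its spread between sheep, besides its 6 counts in SM ewe 128, and LEP could not be tested.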
